A study of Mus musculus with 6 samples.

Results

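The coat proteins and partners of vesicles that travel between the endoplasmic reticulum (ER) and the Golgi are encoded here by 45 genes, chosen by name: the table rows whose Ensembl identifiers GENCODE vM21 maps to them. All 45 were found among the 49584 gene identifiers of the table, and all 45 passed the filter on low counts that left 13474 genes for testing. They comprise 11 genes of the COPII coat and Sar1 GTPases, 9 of the COPI coat, 5 for Arf GTPases and their activator Gbf1, 8 p24 proteins, 6 cargo and KDEL receptors and 6 SNAREs.

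Proteins leave the ER in vesicles coated by COPII. The GTPase Sar1 recruits the inner shell of Sec23 and Sec24, which binds cargo, and Sec13 with Sec31 forms the outer cage. COPI coats, recruited by Arf GTPases that GBF1 activates, return receptors and escaped ER residents from the Golgi. p24 proteins and lectin receptors link cargo inside the lumen to the coats, and SNAREs drive fusion with the target membrane. In male germ cells the same route feeds the Golgi that later builds the acrosome.

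The data are 6 Smart-seq2 libraries, a method that copies and amplifies full-length cDNA from polyadenylated RNA. All come from mouse spermatocytes in the leptotene and zygotene stages of early meiotic prophase, sorted by flow cytometry from testes at postnatal day 12. The 3 Srp68 SKO libraries are labelled as knockouts of Srp68. Its protein belongs to the signal recognition particle (SRP), which delivers ribosomes making secreted and membrane proteins to the ER. The 3 wild type libraries, called control in the design text, carry the same age, tissue and cell type labels. The mouse strain, the removed part of the gene, any Cre driver and the meaning of SKO are not stated in these sources, and no label says that replicates came from separate animals. The comparison of SKO with wild type asks which of these transcripts differ when Srp68 is targeted. The p-values measure the spread between these libraries, which may be technical.

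Total counts were 14.3, 15.4 and 14.3 M in wild type replicates 1 to 3 and 12.7, 11.9 and 11.9 M in the SKO replicates (two-sided exact permutation test, p = 0.1, the smallest that 3 against 3 can give). In CPM, each gene's counts relative to the library total after TMM scaling for composition, Srp68 stood at 21.7, 29.3 and 22.6 in wild type and at 12.1, 6.52 and 6.93 in SKO. The fitted log2 fold change of Srp68 was -1.52 ± 0.28 (SE; edgeR adjusted p = 0.00107), so transcript remained in each library labelled SKO. Summed levels of 12 leptotene and zygotene markers were 17000 to 21100 CPM in wild type and 28400 to 37100 CPM in SKO, with 10 of the 12 higher and 1, Spo11, lower (log2 fold change -0.36). Of 9 tested spermatogonial markers 2 were lower and 0 higher, with sums of 406 to 466 CPM in wild type and 266 to 346 CPM in SKO. Uchl1, the most abundant of these markers, averaged 215 CPM in wild type and 118 CPM in SKO. Of 6 tested pachytene markers 5 were lower and 0 higher, with sums of 673 to 778 CPM in wild type and 529 to 605 CPM in SKO. Sertoli markers summed to 15.9 to 20.9 CPM in wild type and 9.87 to 31.8 CPM in SKO, with 0 of 6 tested called, and endothelial markers to under 2 CPM in every library, with Emcn at 0. Leydig markers summed to 0.58 to 6.6 CPM and 5.1 to 10.7 CPM, with Cyp11a1 and Cyp17a1 at 0 in all 6 libraries. Myoid markers summed to 3.74 to 7.4 CPM and 10.5 to 28.2 CPM, with Des at 0, and both tested markers were higher (Acta2, log2 fold change 2.25, and Myl9, 1.58). Macrophage markers stayed at 1.8 to 2.77 CPM except for 41.1 CPM in SKO replicate 3, and Lyz2, 1 of 1 tested, was higher (3.35, edgeR adjusted p = 0.0454). The Lyz2 groups overlapped, at 0.129, 0.348 and 2.16 CPM in wild type and 1.23, 0.558 and 25.2 CPM in SKO. Erythroid markers, with Alas2 at 0, ranged from 2.77 to 137 CPM in wild type and from 37.4 to 150.0 CPM in SKO, with 0 of 4 tested called. Beside these marker counts, the shares over all tested genes were 14.1% higher and 14.4% lower. The part of these marker shifts in the results below was not tested. Where a transcript was lower, fewer cells of a type and less RNA per cell cannot be told apart.

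Promoter windows were available in the RefSeq table (GRCm38.p6, 250 bases before to 50 bases after each start) for 40 of the 45 genes, as 47 windows. Motifs known from stress responses of the secretory pathway were searched on both strands. The UPRE, TGACGTGG, a motif bound by factors of the unfolded protein response, lay in 9 of the 47 windows (19.1%), against 222 of all 32851 windows (0.676%) and 0.81% of the 12219 windows that belong to tested genes. It shares its first 6 letters with the CRE, TGACGTCA, which lay in 2 of 47 windows (4.26%), those of Cope and Gosr2, against 1.79% of all windows and 3.25% of those of tested genes. The ERSE, ERSE-II and CLEAR (TCACGTGA) motifs were in 0 of the 47 windows, against 0.119%, 0.0365% and 0.974% of all windows and 0.164%, 0.0655% and 1.88% of those of tested genes. A CCAAT box was in 40.4%, against 37.4% of all windows and 38.7% of those of tested genes. The UPRE windows belonged to 8 genes (Arf1, Copb1, Copb2, Gbf1, Kdelr3, Sec23a, Sec24d and Stx5a), since the windows of Arf1 overlap and hold the same site. The 5 sequences below, from genes of 4 roles, show the UPRE in capitals, read 5′ to 3′ along the gene. CCACGTCA is the motif on the other strand. They lie at chr11:59228182-59228301 (minus strand, Arf1), chr7:114254681-114254800 (minus, Copb1), chr19:46152438-46152557 (plus, Gbf1), chr15:79516288-79516407 (plus, Kdelr3) and chr3:123267376-123267495 (plus, Sec24d).
Arf1: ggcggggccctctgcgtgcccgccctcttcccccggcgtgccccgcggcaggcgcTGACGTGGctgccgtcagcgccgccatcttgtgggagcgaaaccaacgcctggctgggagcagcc
Copb1: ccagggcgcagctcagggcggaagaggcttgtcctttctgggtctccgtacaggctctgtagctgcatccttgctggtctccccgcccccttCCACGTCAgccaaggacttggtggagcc
Gbf1: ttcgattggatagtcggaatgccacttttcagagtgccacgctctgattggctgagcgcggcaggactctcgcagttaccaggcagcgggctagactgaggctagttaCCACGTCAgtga
Kdelr3: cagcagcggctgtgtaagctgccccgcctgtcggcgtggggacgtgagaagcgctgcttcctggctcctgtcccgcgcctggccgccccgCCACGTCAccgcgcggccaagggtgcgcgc
Sec24d: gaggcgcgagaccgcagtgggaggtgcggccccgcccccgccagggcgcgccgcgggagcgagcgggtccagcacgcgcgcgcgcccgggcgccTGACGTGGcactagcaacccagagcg
Of the 8 genes with the motif, 0 were higher, 1 was lower (Arf1) and 7 did not pass the test, with a median log2 fold change of -0.16. Of the 32 genes with a window and no UPRE, 5 were higher, 11 lower and 16 did not pass, with a median of -0.11. The shares over all tested genes were 14.1% higher and 14.4% lower. A match is a string of letters and does not show that a factor bound there.

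In SKO spermatocytes, several cargo-binding and Arf transcripts were lower: the p24 protein Tmed3, the lectin Lman2, the p24 protein Tmed10, the receptor subunit Mcfd2 and the GTPase Arf5 fell to 14.7% to 43.1% of their wild type means. Sar1a rose 1.87-fold. COPI coat transcripts, apart from Copz1, did not pass the test, a result that for Arcn1, Cope and Copb2 depended on the processing. In all, 5 of the 45 genes were higher (Sar1a, Sar1b, Tmed5, Gosr2 and Bet1), 13 were lower and 27 did not pass, at an adjusted p under 0.05 (quasi-likelihood test of edgeR, p-values adjusted by Benjamini-Hochberg across the tested genes). Over all 13474 tested genes 14.1% were higher, 14.4% lower and 28.5% either. The count of higher genes was 3 without wild type replicate 2. The median log2 fold change was -0.11 for the 45 genes and -0.03 for all tested genes. The medians lie close together, and without SKO replicate 3 that of the 45 genes was -0.0219 against -0.0359 for all. All 3 SKO libraries lay above all 3 wild type libraries for 9 of the 45 genes and below them for 16, 25 in all without overlap. Of all tested genes 21.6% lay above and 22.2% below, 43.8% in all.

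**Figure D1:**
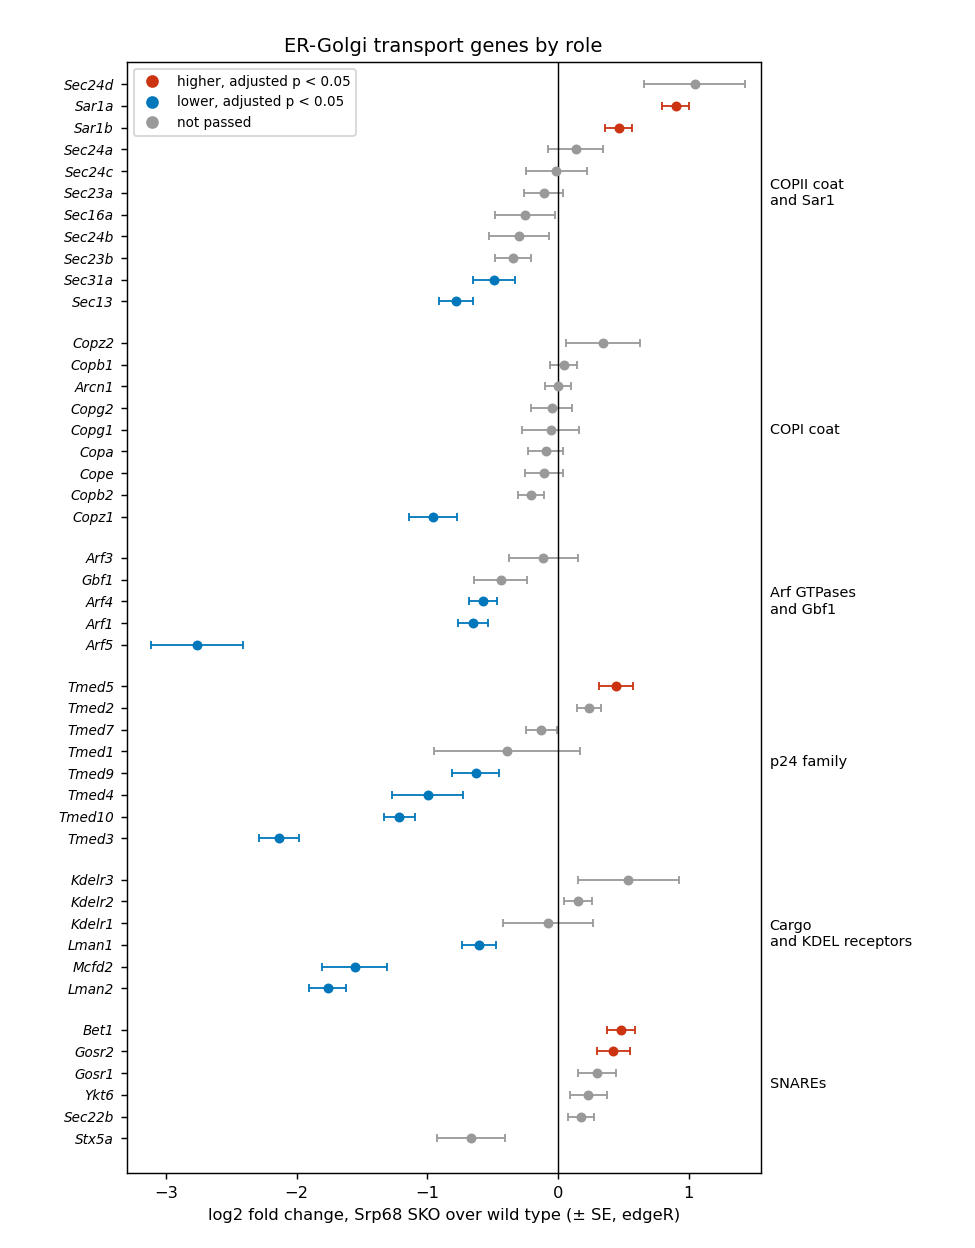
Log2 fold change (SKO over wild type, x axis, with SE bars from edgeR) of the 45 genes, listed by role. Red points were higher (5 genes), blue points lower (13) and grey points did not pass (27). The 5 points farthest to the left are Arf5, Tmed3, Lman2, Mcfd2 and Tmed10.

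The p24 proteins span the membrane once and bind cargo and coats in complexes drawn from different subfamilies. Of 8 genes 4 were lower, 1 was higher and 3 did not pass (median log2 fold change -0.51). The shares over all tested genes were 14.4% lower and 14.1% higher. Tmed3, a gamma-subfamily member on chr9:89699206-89705068, stood at 119.2, 107 and 144 CPM in wild type and at 26.3, 27.55 and 30.5 CPM in SKO. The SKO libraries were all far below the lowest wild type library. The fall of Tmed3 was from 123.5 ± 19.0 to 28.1 ± 2.15 CPM (SD, n = 3 each), a log2 fold change of -2.13 ± 0.15 (SE; edgeR adjusted p = 9.11e-07). Tmed10, the only delta-subfamily p24 protein, on chr12:85340614-85374847, stood at 404.5, 355 and 438 CPM in wild type and at 181, 189 and 147 CPM in SKO. Again the groups did not overlap, and the log2 fold change of Tmed10 was -1.21 ± 0.12 (SE; edgeR adjusted p = 1.04e-05). A pseudogene named after Tmed10 exists in the annotation, and how reads were divided between them is not known. Both alpha-subfamily genes fell as well. Tmed4 stood at 41.4, 52.1 and 41.9 CPM in wild type and at 31.6, 12.0 and 24.15 CPM in SKO, with SKO replicate 2 the lowest (log2 fold change -0.997 ± 0.27, SE; edgeR adjusted p = 0.0136). Without wild type replicate 2 the call of Tmed4 was lost (-0.88, edgeR adjusted p = 0.0588). Tmed9 averaged 48.0 ± 6.39 CPM in wild type and 31.0 ± 4.42 CPM in SKO (-0.63, edgeR adjusted p = 0.0157), and its adjusted p was 0.0755 without SKO replicate 3 and 0.0705 without wild type replicate 1 and 0.0526 in the GC content and length correction.

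Among the other gamma-subfamily genes, 1 was higher and 2 did not pass. Tmed5 averaged 86.2 ± 12.2 CPM in wild type and 117 ± 4.38 CPM in SKO (SD, n = 3), a rise of 0.44 ± 0.13 on the log2 scale (SE; edgeR adjusted p = 0.0215). The call of Tmed5 was lost without SKO replicate 2 (edgeR adjusted p = 0.0904), SKO replicate 3 (0.062) or wild type replicate 2 (0.0993), and under scaling by library totals (0.309). In the GC content and length correction its sign turned (-0.0895, edgeR adjusted p = 0.656). Tmed7 (log2 fold change -0.13) and Tmed1 (-0.39), the latter at 1.06 to 5.12 CPM, did not pass. Tmed2, the beta-subfamily protein, stood at 394, 375 and 372 CPM in wild type and at 423, 448 and 474 CPM in SKO. Its groups did not overlap, but the test was not passed (0.24 ± 0.09, SE; edgeR adjusted p = 0.0767).

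Each p24 gene was also expressed as a share of the family's summed CPM per kb of exon. The exon length merges all annotated exons of a gene, not those of the transcript expressed, so comparisons between genes are approximate. Before division by length, Tmed10 averaged 399 CPM and Tmed2 380 CPM in wild type. Tmed2 took 46.6% ± 2.4 of the pool in wild type and 67.0% ± 2.53 in SKO (SD, n = 3). The share of Tmed10 was 21.2% ± 1.27 in wild type and 11.2% ± 1.59 in SKO, and that of Tmed3 was 13.4% ± 1.52 and 3.73% ± 0.219. For each of these 3 shares the groups did not overlap (two-sided exact permutation test, p = 0.1, the smallest possible; 0.208 after Benjamini-Hochberg adjustment over 25 paralog shares). A design of 3 against 3 cannot bring such a share under 0.05.

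**Figure D2:**
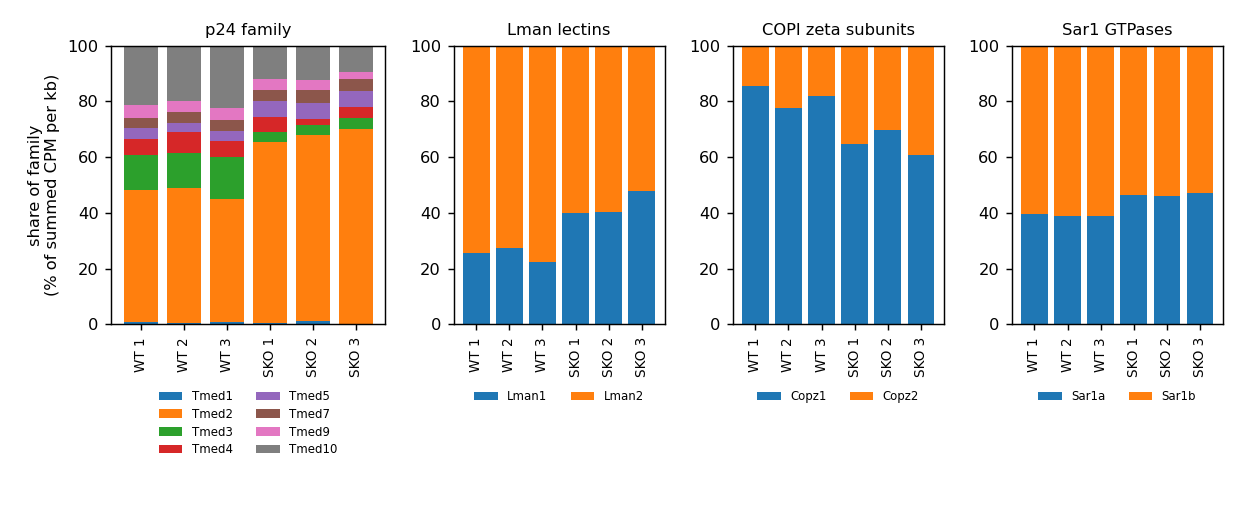
Share of each paralog (y axis, % of the family's summed CPM per kb of exon) in each of the 6 libraries for 4 families. In the p24 family the Tmed2 share is larger and the Tmed3 and Tmed10 shares smaller in each SKO library; Lman1 and Copz2 also take larger shares in SKO.

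Lman1, Lman2 and Mcfd2, the lectin cargo receptors and the soluble partner of Lman1, were lower. Of 6 cargo and KDEL receptors 3 were lower, 0 higher and 3 did not pass (median log2 fold change -0.34). Among all tested genes 14.4% were lower and 14.1% higher. Lman2 (VIP36), which binds mannose-rich glycoproteins, lies on chr13:55343833-55362783 and stood at 398, 292 and 387 CPM in wild type and at 122, 103 and 91.04 CPM in SKO. Each SKO library was less than the lowest wild type library by a wide margin. The log2 fold change of Lman2 was -1.76 ± 0.14 (SE; edgeR adjusted p = 2.04e-06). Lman1 (ERGIC-53) and Mcfd2 form the receptor that carries coagulation factors V and VIII out of the ER. Mcfd2 stood at 38.1, 27.3 and 37.85 CPM in wild type and at 15.3, 11.35 and 8.37 CPM in SKO, a log2 fold change of -1.55 ± 0.25 (SE; edgeR adjusted p = 0.000374). Lman1 stood at 152, 123 and 124 CPM in wild type and at 91.4, 78.3 and 92.5 CPM in SKO, a log2 fold change of -0.61 ± 0.13 (SE; edgeR adjusted p = 0.00311). For both subunits the groups did not overlap. Lman1 took 25.1% ± 2.56 of the summed Lman1 and Lman2 level per kb in wild type and 42.8% ± 4.27 in SKO (SD, n = 3; exact permutation p = 0.1, adjusted 0.208).

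KDEL receptors return ER chaperones from the Golgi and span the membrane several times. None of Kdelr1, Kdelr2 and Kdelr3 passed the test, with log2 fold changes of -0.08, 0.15 and 0.54. Kdelr2 held nearly the whole pool, at 95.7% ± 0.776 of the receptors' level per kb in wild type and 95.6% ± 0.451 in SKO (SD, n = 3; exact permutation p = 0.8). Kdelr2 itself stood at 280, 252 and 313 CPM in wild type and at 303.5, 312 and 326 CPM in SKO, with overlapping groups.

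Arf GTPases recruit COPI and other coats to Golgi membranes. Of 5 genes 3 were lower, 0 higher and 2 did not pass (median log2 fold change -0.57). The shares over all tested genes were 14.4% lower and 14.1% higher. Arf5, on chr6:28423560-28426602, showed the widest difference of all 45 genes: 37.8, 50.1 and 25.8 CPM in wild type and 7.74, 2.61 and 6.35 CPM in SKO. These SKO values rest on 94, 28 and 66 counts, and every one was under the lowest wild type value. The log2 fold change of Arf5 was -2.76 ± 0.35 (SE; edgeR adjusted p = 6.34e-05). Of its exon length 16.4% overlaps Gcc1 on the other strand, and without a stated strand setting those reads cannot be separated. Arf1, the GTPase best known for COPI recruitment, stood at 228, 234 and 205 CPM in wild type and at 156, 136 and 133 CPM in SKO (-0.65 ± 0.11, SE; edgeR adjusted p = 0.000642). With a correction for GC content and exon length, described further on, the Arf1 call was lost (-0.24, edgeR adjusted p = 0.0845). Arf4 stood at 536, 469 and 543 CPM in wild type and at 375, 308 and 357 CPM in SKO (-0.57 ± 0.11, SE; edgeR adjusted p = 0.0012). Neither pair of groups overlapped. Of the Arf4 exon length 14.6% overlaps Pde12 on the other strand. Arf3 (-0.11) and the exchange factor Gbf1 (-0.44, edgeR adjusted p = 0.126) did not pass, although Gbf1 did so without wild type replicate 3 (-0.60, edgeR adjusted p = 0.0341). Of the summed level per kb of Arf1, Arf3, Arf4 and Arf5, Arf1 made up 38.9% ± 2.04 in wild type and 39.8% ± 2.15 in SKO (SD, n = 3, exact permutation p = 0.7). Arf5 made up 7.25% ± 2.26 and 1.67% ± 0.693 of it (exact permutation p = 0.1, adjusted 0.208). Arf2, from a second list described further on and named after its values were seen, was not in this pool. It averaged 116 CPM in wild type and 118 CPM in SKO and did not pass (0.02). In the GC content and length correction Arf2 was called higher.

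**Figure D3:**
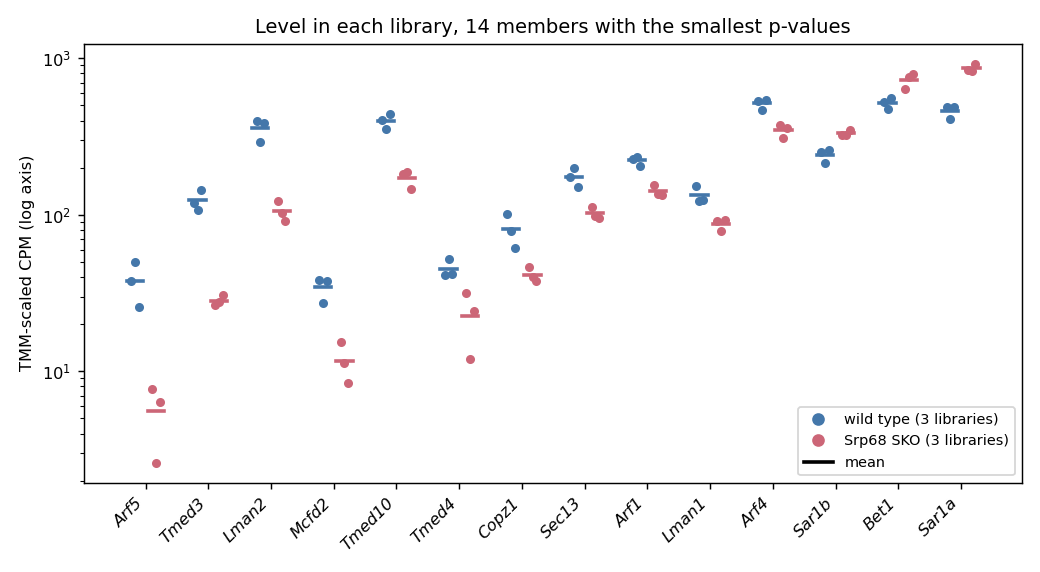
TMM-scaled CPM (log axis) in each library for the 14 called genes with the smallest p-values; points are libraries (3 wild type, 3 SKO) and bars are means. For each gene the 3 SKO points lie on the same side of the 3 wild type points, below them for Arf5, Tmed3, Lman2, Mcfd2, Tmed10, Tmed4, Copz1, Sec13, Arf1, Lman1 and Arf4 and above them for Sar1b, Bet1 and Sar1a.

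The COPI coat is a single large complex, in which the gamma and zeta subunits have paralogs. Of 9 coat genes 1 was lower, 0 were higher and 8 did not pass (median log2 fold change -0.06). Among all tested genes 14.4% were lower and 14.1% higher. Copz1, a zeta subunit, stood at 101, 79.3 and 61.3 CPM in wild type and at 46.4, 40.3 and 37.8 CPM in SKO. Wild type replicates differed widely, but the lowest exceeded every SKO library, and the log2 fold change of Copz1 was -0.96 ± 0.18 (SE; edgeR adjusted p = 0.0013). Its paralog Copz2, at 8.06 to 13.6 CPM in wild type and 10.6 to 15.1 CPM in SKO, did not pass (0.34). Copz1 accounted for 81.9% ± 3.91 of the zeta pool per kb in wild type and 65.1% ± 4.42 in SKO (SD, n = 3; exact permutation p = 0.1, adjusted 0.208). Copa, Copb1, Copg1, Copg2, Cope and Arcn1 had log2 fold changes between -0.11 and 0.04, with SE from 0.10 to 0.22. Arcn1, the delta subunit, gave 248.6, 251 and 229 CPM in wild type and 250.3, 234.5 and 244 CPM in SKO, with overlapping groups (0.00 ± 0.10, SE; edgeR adjusted p = 0.992). With the correction for GC content and exon length described further on, Arcn1 was called lower (-0.37, edgeR adjusted p = 0.0157). Cope was called higher there (0.50, edgeR adjusted p = 0.00712). Copb2 (-0.20) lay lower in all 3 SKO libraries and did not pass (edgeR adjusted p = 0.152).

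In the COPII machinery the GTPase genes Sar1a and Sar1b were higher and the outer cage genes Sec13 and Sec31a lower, and of these 4 only Sar1a and Sec13 kept their calls in all 16 alternatives. Of 11 genes 2 were higher, 2 lower and 7 did not pass (median log2 fold change -0.11). The shares over all tested genes were 14.1% higher and 14.4% lower. Sar1a, on chr10:61680299-61693297, stood at 490.3, 408 and 487 CPM in wild type and at 838, 831 and 920.2 CPM in SKO. All SKO libraries exceeded the highest wild type library, and the log2 fold change of Sar1a was 0.90 ± 0.10 (SE; edgeR adjusted p = 2.59e-05). Sar1b stood at 251, 214 and 258 CPM in wild type and at 323, 326 and 349 CPM in SKO, also without overlap (0.46 ± 0.11, SE; edgeR adjusted p = 0.00441). The Sar1b call was lost under scaling by library totals (0.20, edgeR adjusted p = 0.121) and in the GC content and length correction (0.14, edgeR adjusted p = 0.326). Sar1b starts 52 bases from Sec24a on chromosome 11, on the opposite strand, and Sec24a did not pass (0.14). Per kb of exon, Sar1b had the highest level of all 45 genes in wild type, at 192 CPM per kb, followed by Kdelr2 at 154 and Tmed2 at 150.5. This order depends on the merged exon lengths, and in CPM the highest was Bet1, at 521. Sar1a took 39.1% ± 0.436 of the Sar1 pool per kb in wild type and 46.5% ± 0.42 in SKO (SD, n = 3; exact permutation p = 0.1, adjusted 0.208).

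Sec13 and Sec31a form the outer COPII cage, and Sec13 is also a subunit of the nuclear pore. Sec13 stood at 174, 199.6 and 151 CPM in wild type and at 113, 98.2 and 95.4 CPM in SKO, with no overlap (log2 fold change -0.78 ± 0.13, SE; edgeR adjusted p = 0.00049). Sec31a averaged 46.6 ± 3.96 CPM in wild type and 33.1 ± 2.77 CPM in SKO (SD, n = 3; -0.49 ± 0.16, SE; edgeR adjusted p = 0.0348). The Sec31a call was lost on leaving out any single library other than wild type replicate 1: edgeR adjusted p = 0.0581, 0.0855 and 0.13 without SKO replicates 1, 2 and 3, and 0.121 and 0.0616 without wild type replicates 2 and 3. It was also lost in the GC content and length correction (-0.26, edgeR adjusted p = 0.244). The inner-shell genes Sec23a (-0.11) and Sec23b (-0.35, edgeR adjusted p = 0.0783), the cargo-binding Sec24a, Sec24b (-0.30) and Sec24c (-0.01) and the exit site organiser Sec16a (-0.25) did not pass. Sec24d had the lowest level per kb of the 45 genes in wild type (0.752 CPM per kb). It stood at 4.58, 5.97 and 3.73 CPM in wild type and at 13.8, 5.31 and 10.4 CPM in SKO, so SKO replicate 2 overlapped the wild type range (1.05 ± 0.39, SE; edgeR adjusted p = 0.0567). Without that library the edgeR adjusted p of Sec24d was 0.0231 (log2 fold change 1.34). Leaving out any other library gave no call. The edgeR adjusted p was 0.272 (log2 fold change 0.715) and 0.141 without SKO replicates 1 and 3. It was 0.132, 0.0595 and 0.138 without wild type replicates 1, 2 and 3.

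SNAREs of this route are held by a tail anchor at the C terminus, apart from Ykt6, which is lipid-attached. Of 6 genes 2 were higher, 0 lower and 4 did not pass (median log2 fold change 0.27). Among all tested genes 14.1% were higher and 14.4% lower. Bet1 stood at 529, 475 and 560 CPM in wild type and at 633, 756 and 795 CPM in SKO, without overlap (0.48 ± 0.11, SE; edgeR adjusted p = 0.00422). The Bet1 call was lost under scaling by library totals (0.22, edgeR adjusted p = 0.0779), and its sign turned in a correction for GC content and exon length described further on (-0.11, edgeR adjusted p = 0.438). Gosr2 (membrin) averaged 62.3 ± 3.19 CPM in wild type and 83.6 ± 3.59 CPM in SKO (SD, n = 3; 0.42 ± 0.13, SE; edgeR adjusted p = 0.0226). Gosr2 lost its call without SKO replicate 1 (edgeR adjusted p = 0.0697) or 2 (0.0854), or wild type replicate 1 (0.0602) or 2 (0.072), and under scaling by library totals (0.386). Sec22b (0.18), Ykt6 (0.23) and Gosr1 (0.30) did not pass, and Stx5a, at -0.67, also missed the threshold (edgeR adjusted p = 0.071).

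Summed over each role, CPM ranges did not overlap between genotypes except for COPI. The COPII and Sar1 sum was 1170 to 1240 CPM in wild type and 1550 to 1670 CPM in SKO, and most of it came from Sar1a and Sar1b. These GTPase genes were higher in SKO while the called coat genes Sec13 and Sec31a were lower, so the sum does not describe the coat. SNAREs summed to 966 to 1050 CPM in wild type and 1230 to 1350 CPM in SKO. Bet1, the most abundant of them, averaged 521 CPM in wild type and 728 CPM in SKO, and its sign turned in the GC content and length correction (-0.11). Arf genes with Gbf1 summed to 819 to 856 CPM in wild type and 492 to 591 CPM in SKO, p24 genes to 1110 to 1260 CPM and 903 to 945 CPM, and receptors to 706 to 881 CPM and 520 to 544 CPM. COPI coat genes summed to 1170 to 1260 CPM in wild type and 1090 to 1200 CPM in SKO. These sums are descriptions, dominated by the most abundant genes, and were not tested.

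**Figure D4:**
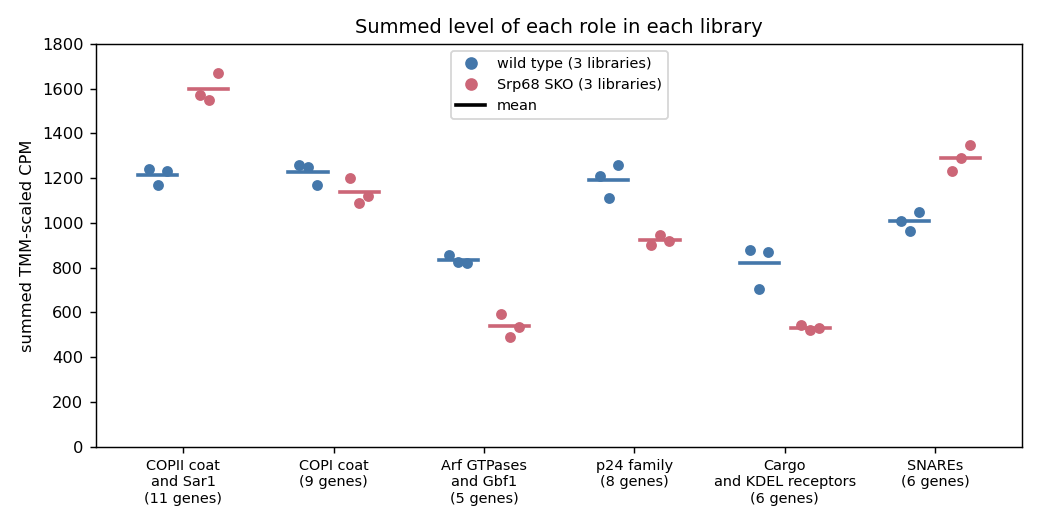
Summed TMM-scaled CPM (y axis) of each role in each library, with means as bars (3 wild type, 3 SKO). The Arf, p24 and receptor sums are lower in every SKO library. The sums of SNAREs and of COPII with Sar1 are higher, and most of the latter is Sar1a and Sar1b. The COPI ranges meet (1170 to 1260 against 1090 to 1200 CPM).

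Grouped by how the protein meets the membrane, a grouping chosen after the values were seen, 11 genes encode single-span or luminal proteins made with a signal peptide (the p24 proteins, Lman1, Lman2 and Mcfd2). Of these 7 were lower, 1 higher and 3 did not pass (median log2 fold change -0.63), beside 14.4% lower and 14.1% higher over all tested genes. The lower calls of Tmed4 and Tmed9 and the higher call of Tmed5 did not hold in every alternative. Of 5 genes for C-terminally anchored SNAREs 2 were higher, 0 lower and 3 did not pass (median 0.30), and neither higher call, of Bet1 or Gosr2, held in every alternative. Of 26 genes for cytosolic or lipid-attached proteins 2 were higher, 6 lower and 18 did not pass (median -0.11). The 3 multi-pass KDEL receptors did not pass (median 0.15). No test of the difference between these classes was made.

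Among all tested genes those called higher in SKO had a lower transcript GC content (median 44.6%) than those called lower (52.0%), and across genes log2 fold change and GC content had a Spearman correlation of -0.336 (n = 13452 genes, which are not independent). Over the 45 genes it was -0.276. Members called higher had a median GC content of 42.8% (35.0% to 50.7%), and members called lower 49.3% (43.3% to 59.9%). In a fit with each library's trend on GC content and exon length as offsets, 10 of the 13 lower calls and 2 of the 5 higher calls, Sar1a and Gosr2, remained. Arf5 (-1.94), Tmed3 (-1.82), Lman2 (-1.53), Mcfd2 (-1.36) and Tmed10 (-1.33) stayed called, as did Sar1a (0.97). Arf1 (-0.24), Sec31a (-0.26) and Tmed9 (-0.48) lost their calls, and so did Sar1b (0.14), while Bet1 (-0.11) and Tmed5 (-0.09) changed sign and were not called. Cope (0.50, edgeR adjusted p = 0.00712), Sec24d (1.26), Tmed2 (0.27) and Ykt6 (0.67) became higher, and Arcn1 (-0.37), Sec23b (-0.56) and Tmed7 (-0.36) became lower. Of the COPI subunits near 0 before correction, Copa (-0.07), Copb1 (-0.11), Copg1 (-0.19) and Copg2 (-0.11) were again not called.

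**Figure D5:**
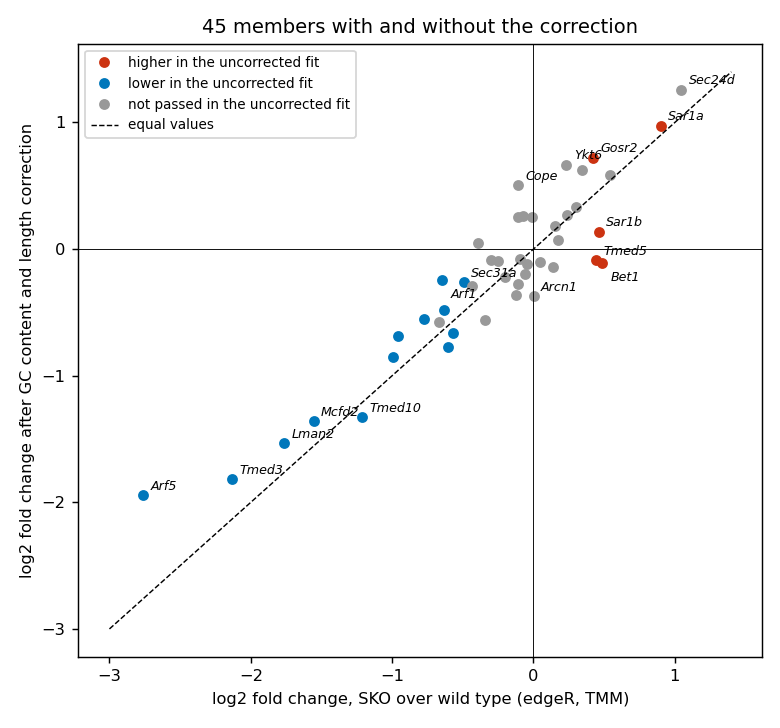
Log2 fold change (SKO over wild type) of the 45 genes without (x axis) and with (y axis) the correction for GC content and exon length; colours give the uncorrected call and the dashed line equal values. Arf5, Tmed3, Lman2, Mcfd2 and Tmed10 stay at the lower left, while Bet1 and Tmed5 cross 0.

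When libraries were scaled by their totals alone, the median of all tested genes shifted to -0.29 and 1 of the 45 genes was higher (Sar1a, 0.64). Under that scaling Sar1b (0.20), Bet1 (0.22), Tmed5 (0.18) and Gosr2 (0.16) kept their sign and lost their calls, and 18 genes were lower. The 13 genes lower under TMM were among those 18, joined by Copb2, Gbf1, Sec23b, Stx5a and Tmed7.

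Beyond the 45 genes, 86 others of the early secretory pathway were listed, of which 80 were tested: 9 were higher, 25 lower and 46 did not pass (median log2 fold change -0.24). Over all 13474 tested genes 14.1% were higher and 14.4% lower (median -0.03). The list was chosen with earlier results of these data known, so its counts are descriptions and were not tested against these shares. The count of lower genes in this second list was 16 without SKO replicate 2 or without wild type replicate 1. The 6 not tested were Sec16b, Sec31b, Lman1l, Cnih3, Tmed6 and Tmed11. Ergic3, a cargo receptor that cycles between the ER and the Golgi, fell from 352 ± 30.9 to 99.5 ± 17.6 CPM (SD, n = 3; log2 fold change -1.82 ± 0.13, SE; edgeR adjusted p = 1.08e-06). Lman2l, the lectin related to Lman2, averaged 52.2 ± 8.61 CPM in wild type and 18.4 ± 3.76 CPM in SKO (-1.50, edgeR adjusted p = 9.82e-05). Of 12 tested cargo receptors and p24 proteins in this second list 3 were higher and 5 lower, and the higher ones were Cnih4 (1.05), Cnih1 (0.57) and Bcap31 (0.45). Cnih1 and Cnih4 are cornichon homologues, which escort growth factor precursors and receptors into COPII vesicles. The calls of Cnih1 and Bcap31 were lost when libraries were scaled by their totals (log2 fold changes 0.30 and 0.19), and that of Cnih1 also in the GC content and length correction (0.38). Cnih4 averaged 424 ± 68.2 CPM in wild type and 878 ± 120.0 CPM in SKO (edgeR adjusted p = 5.34e-05).

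Regulators of the cage and tethers showed changes in both directions. Pef1 and Pdcd6 (ALG-2) encode calcium-binding partners that act on Sec31, and Pef1 averaged 53.95 ± 3.43 CPM in wild type and 20.7 ± 4.19 CPM in SKO (-1.38, edgeR adjusted p = 9.66e-05). Pdcd6 averaged 108 ± 11.03 CPM and 148 ± 6.28 CPM (0.46, edgeR adjusted p = 0.00963), a call that was lost without wild type replicate 2 (0.0502) and under scaling by library totals (0.206). Of 37 Rab GTPases and tethers 3 were higher, 12 lower and 22 did not pass, beside 14.1% higher and 14.4% lower over all tested genes. Rab1b, which guides ER-derived vesicles to the Golgi, fell from 33.2 ± 5.97 to 8.81 ± 4.09 CPM (SD, n = 3; -1.91, edgeR adjusted p = 0.000508). Its paralog Rab1a, named after its values were seen, averaged 246 ± 7.77 and 244 ± 10.1 CPM and did not pass (-0.01). Rab6a, of retrograde Golgi traffic (0.85, edgeR adjusted p = 5.86e-05), and Trappc2, a subunit of the TRAPP tether (1.05, edgeR adjusted p = 6.96e-05), were higher. Of the Rab6a exon length 19.0% overlaps Mrpl48 on the other strand. Cog8, of the COG tether at the Golgi, was lower (-1.77, edgeR adjusted p = 0.000292), and 28.2% of its exon length overlaps Pdf on the same strand. Napa (alpha-SNAP), which with NSF takes SNARE complexes apart, was lower (-1.45, edgeR adjusted p = 0.000443). Of 16 other SNAREs and partners 2 were higher and 4 lower, of 7 other Arf and COPI regulators 0 were higher and 2 lower, and of 8 tested COPII and exit site factors 1 was higher and 2 lower.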

How the data were processed

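Smart-seq2 libraries of sorted leptotene and zygotene spermatocytes were sequenced, 3 per genotype. The submitters' processing notes name FastQC, Trim Galore 0.6.4, HISAT2 2.0.5 and the builds GRCm38 and mm10; for the counting tool, its strand setting and its annotation, nothing is given in the sources used here. The authors deposited raw read counts per gene, without normalization. Knockout columns are named CKO where the labels write SKO, and were matched by genotype and replicate number. No molecular identifiers were used, so PCR copies are counted too. With 11.9 to 15.4 M counts per library, 3 counts equal 0.195 to 0.253 CPM.

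GENCODE vM21 (GRCm38) gave symbols, positions, exon lengths and GC content, matching 49325 of 49584 identifiers. The filterByExpr function of edgeR 4.0.16 (R 4.3.3) selected genes, TMM scaled the libraries, and genotype was tested with glmQLFit and glmQLFTest (two-sided, Benjamini-Hochberg over all 13474 tested genes, threshold 0.05). CPM are TMM-scaled. The scripts were tested on simulated data. Members and lists were chosen with earlier results of these data known. Values per library were given for the 14 called members with the smallest p-values, and the up to 6 other pathway genes per direction with the smallest p-values, at least 5 CPM in the higher genotype and separate groups were named. Srp68 was also given per library. So were Tmed2, Kdelr2, Arcn1 and Sec24d, outside this rule and chosen after their values were seen. Alternatives were other scalings, filters, DESeq2 1.42.0, limma-voom 3.58.1, robust fitting, a replicate block, a GC content and length correction (loess span 0.3), a stricter threshold of 0.01 and each library left out. Paralog shares used CPM per kb of exon, with all annotated exons of a gene merged. Reads of close paralogs, pseudogenes and overlapping genes may be divided in ways the sources do not state, and 15 members overlap an exon of another gene.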

Additional observations from a re-analysis of the deposited data

How the results depend on the processing

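Of the 18 called members, 10 kept their call in each of 16 alternatives: Sar1a (higher) and Arf4, Arf5, Copz1, Lman1, Lman2, Mcfd2, Sec13, Tmed10 and Tmed3 (lower). Bet1, Gosr2, Sar1b, Tmed5, Arf1, Sec31a, Tmed4 and Tmed9 did not. Scaling by library totals gave 1010 genes higher and 3168 lower in the whole table, 1 member and 3 other pathway genes higher, and a members' median of -0.37 against -0.29 for all genes. At an adjusted p under 0.01, 1230 genes were higher and 1142 lower in the whole table, 3 members were higher and 15 other pathway genes lower. With 1 library left out, members higher ranged from 3 to 5 and lower from 11 to 13, other pathway genes higher from 6 to 8 and lower from 16 to 21, all genes higher from 1361 to 1916 and lower from 1373 to 1851, and the members' median from -0.16 to -0.0219. Among members called with or without it, the GC content and length correction turned the sign of Cope (0.50), Arcn1 (-0.37), Tmed5 (-0.0895) and Bet1 (-0.11). Cope (-0.11) and Arcn1 (0.002) were not called before it, and Tmed5 and Bet1 were not called after it. Apart from this construction the cause was not tested. Replicate numbers did not pair the libraries (correlations of deviations for equal numbers 0.02, -0.05 and 0.04). With the replicate block 5 members were higher and 13 lower, the same genes as without it, and of all tested genes 1976 were higher and 1991 lower. With 3 libraries per genotype, low members such as Tmed1, Kdelr3 and Sec24d have wide errors, and a missed threshold does not show equal levels. Paralog shares computed from raw counts moved most for Tmed10, to a difference of -14.7 points, and for Tmed2, to 16.7 points, with the same sign.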
